A study of Homo sapiens with 4 samples.

Results

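Long noncoding RNA (lncRNA) genes were followed here through the regions around their starts. A region is a tile of 1000 bp on the hg19 genome, and a tile counted as a lncRNA promoter tile when it overlapped the 2 kb on either side of a transcription start site (TSS) of a lncRNA gene and lay more than 2 kb from every TSS of a protein-coding gene. By this rule 4103 of the 69094 autosomal tiles that the deposited tables listed in any of 3 comparisons were lncRNA promoter tiles. They belonged to 3240 lncRNA genes, of which 1168 have a symbol and 2072 have an identifier only. A tile served a single gene in 3735 cases and 2 or more genes in 368 cases, where its listing cannot be assigned to one gene rather than another.

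The study asked how the amount of LY75, the antigen receptor DEC205, bears on DNA methylation when ovarian cancer cells move between a mesenchymal-like (M) and an epithelial-like (E) state. All 4 clones were made from SKOV3, an established human ovarian cancer cell line of mesenchymal-like appearance that grows as cultured cells without the stroma of a tumour. ShC-S carried a control shRNA and had the M phenotype, ShLy75-S carried a shRNA against LY75 and had the E phenotype, Ly75-KO-S had lost LY75 through CRISPR and had the E phenotype, and Ly75-OV-S expressed a shRNA-resistant LY75 cDNA in LY75 knockdown cells and had the M phenotype. Each clone gave 1 library by reduced representation bisulfite sequencing (RRBS), in which the enzyme MspI cuts the genome at CCGG and reads from the ends of short fragments report the methylation of the CpGs they hold. There were no replicates, so a difference between libraries cannot be told apart from a difference between single clones, and the depth of the libraries is unknown, because the tables hold no read counts.

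The comparisons were ShC-S vs ShLy75-S, Ly75-KO-S vs Ly75-OV-S, and a mix that set ShC-S and Ly75-OV-S together against ShLy75-S and Ly75-KO-S. The single comparisons had no library in common, although Ly75-OV-S descended from LY75 knockdown cells. The mix reused the same 4 libraries, so that its values stand beside the others without being a further observation. The names of the tables give the limits for a listing as a difference of 25 percentage points and a q-value of 0.01, whereas the study's methods name a looser limit on the adjusted p-value, and which applies was not tested here. Only the positions of the listed tiles were used, so that a listing says that the methylation of the tile differed between the libraries and says nothing of which clone had more.

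Long noncoding RNAs are transcripts that are not translated, and many are made in only a few tissues or at particular stages of development. Some act on chromatin near the place where they are made, as imprinted lncRNAs such as KCNQ1OT1 do, and others serve as the source of a microRNA or a small nucleolar RNA (snoRNA). Promoters that are dense in CpGs are usually unmethylated in normal cells and can gain methylation in tumours, whereas promoters with few CpGs are commonly methylated where the gene is silent.

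Genes whose outermost 5′ end lay in a tile listed in both single comparisons are described first. A shared listing need not mean the same direction of difference. The 5′ end tile was listed for 777 genes in ShC-S vs ShLy75-S and for 287 in Ly75-KO-S vs Ly75-OV-S. Over all autosomal tiles, 16.0% of the former table and 29.2% of the latter were shared. The genes in both numbered 101, of which 32 have a symbol and 69 an identifier only. For the 6 of the former with the most CpGs in the tile, 300 bases of the GRCh37 reference around the 5′ end are shown, so that the CpG density at these starts is visible. Each sequence runs 5′ to 3′ on the strand of the gene, capitals mark every CpG of the reference, and the GENCODE 5′ end is base 150 for USP3-AS1, RAET1K and LINC01044, base 151 for KCNQ1DN, base 133 for LINC00574 and base 36 for GCAWKR.
USP3-AS1: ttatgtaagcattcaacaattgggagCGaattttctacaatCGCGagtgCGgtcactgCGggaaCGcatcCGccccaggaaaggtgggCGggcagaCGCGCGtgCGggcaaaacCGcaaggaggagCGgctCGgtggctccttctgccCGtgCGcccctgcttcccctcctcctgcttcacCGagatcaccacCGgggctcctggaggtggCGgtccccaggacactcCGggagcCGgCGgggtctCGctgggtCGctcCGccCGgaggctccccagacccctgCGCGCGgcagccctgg
RAET1K: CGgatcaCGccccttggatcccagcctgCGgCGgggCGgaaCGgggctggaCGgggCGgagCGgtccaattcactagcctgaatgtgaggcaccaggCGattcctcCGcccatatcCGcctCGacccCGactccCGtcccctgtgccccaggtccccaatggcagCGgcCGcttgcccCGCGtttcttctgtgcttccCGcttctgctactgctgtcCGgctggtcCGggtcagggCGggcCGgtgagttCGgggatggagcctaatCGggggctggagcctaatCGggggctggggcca
LINC01044: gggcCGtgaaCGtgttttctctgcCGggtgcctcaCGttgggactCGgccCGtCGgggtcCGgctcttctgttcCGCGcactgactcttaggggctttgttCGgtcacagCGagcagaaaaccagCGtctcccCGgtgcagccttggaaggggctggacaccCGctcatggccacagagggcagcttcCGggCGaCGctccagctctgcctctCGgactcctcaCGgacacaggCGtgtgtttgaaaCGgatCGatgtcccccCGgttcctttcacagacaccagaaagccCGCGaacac
KCNQ1DN: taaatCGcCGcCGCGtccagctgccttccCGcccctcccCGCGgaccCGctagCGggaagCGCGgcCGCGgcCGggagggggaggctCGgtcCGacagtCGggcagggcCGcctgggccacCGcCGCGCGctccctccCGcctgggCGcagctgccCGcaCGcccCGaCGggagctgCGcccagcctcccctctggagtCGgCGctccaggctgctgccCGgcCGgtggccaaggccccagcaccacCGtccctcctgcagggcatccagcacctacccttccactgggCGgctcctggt
LINC00574: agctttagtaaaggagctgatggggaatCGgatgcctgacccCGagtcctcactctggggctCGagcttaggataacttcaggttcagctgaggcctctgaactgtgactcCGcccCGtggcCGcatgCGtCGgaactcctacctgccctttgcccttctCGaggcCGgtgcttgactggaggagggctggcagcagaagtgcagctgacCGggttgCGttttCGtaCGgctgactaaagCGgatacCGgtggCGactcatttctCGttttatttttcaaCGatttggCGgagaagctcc
GCAWKR: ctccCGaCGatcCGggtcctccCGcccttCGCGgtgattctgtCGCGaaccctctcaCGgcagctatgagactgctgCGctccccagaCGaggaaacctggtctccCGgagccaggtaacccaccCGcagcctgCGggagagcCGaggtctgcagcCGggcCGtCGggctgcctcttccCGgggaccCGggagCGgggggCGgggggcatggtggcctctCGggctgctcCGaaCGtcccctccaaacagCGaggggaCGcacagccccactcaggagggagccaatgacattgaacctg

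The USP3-AS1 window (chr15:63893638-63893937, minus strand) held 30 CpGs and 4 CCGG sites. Windows of RAET1K (chr6:150326152-150326451, minus strand) and GCAWKR (chr15:101390001-101390300, plus strand) held 27 CpGs each, with 3 and 5 CCGG sites. The LINC01044 window (chr13:112985389-112985688, minus strand) held 26 CpGs and 5 CCGG sites, and the LINC00574 window (chr6:170190001-170190300, plus strand) held 20 CpGs and 3 CCGG sites. KCNQ1DN, a transcript of the imprinted region of chromosome 11, had the most CpGs, 35 in its window (chr11:2891113-2891412, plus strand), with 3 CCGG sites. The ratio of CpGs observed to those that the base composition would give lay between 0.75 for GCAWKR and 0.867 for LINC01044, so that all 6 windows were CpG-dense. Only part of these CpGs lies in reads from MspI fragments. Over the whole 5′ end tile, the reads could hold 17 of 105 CpGs for USP3-AS1, 15 of 78 for RAET1K, 46 of 76 for LINC01044, 37 of 69 for KCNQ1DN, 2 of 62 for LINC00574 and 23 of 58 for GCAWKR.

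Windows of this kind were not typical. Over all 13171 lncRNA 5′ ends in tiles of the rule, the 300-base window held a median of 4 CpGs, and 34.4% contained CCGG (a motif that reads the same on both strands). Where the 5′ end tile was listed in both single comparisons, the median was 8 CpGs and 70.3% of the 101 windows held CCGG (Wilson 95% interval 60.8 to 78.3%). Where RRBS could reach the 5′ end tile but no table listed it, the median was 10 CpGs and 72.8% of 2886 windows held CCGG. CCGG in the window therefore marked what RRBS could read and was as common in tiles that were not listed.

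Among the 32 genes with a symbol, 19 were long intergenic (LINC) genes and 7 were antisense genes, and the tile over the 5′ end held 8 to 105 CpGs, with a median of 27. The mix also listed 12 of these tiles. The 15 genes with the most CpGs in the tile are described in turn, and the plot of their promoter tiles shows each tile with its CpG count.

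**Figure D1:**
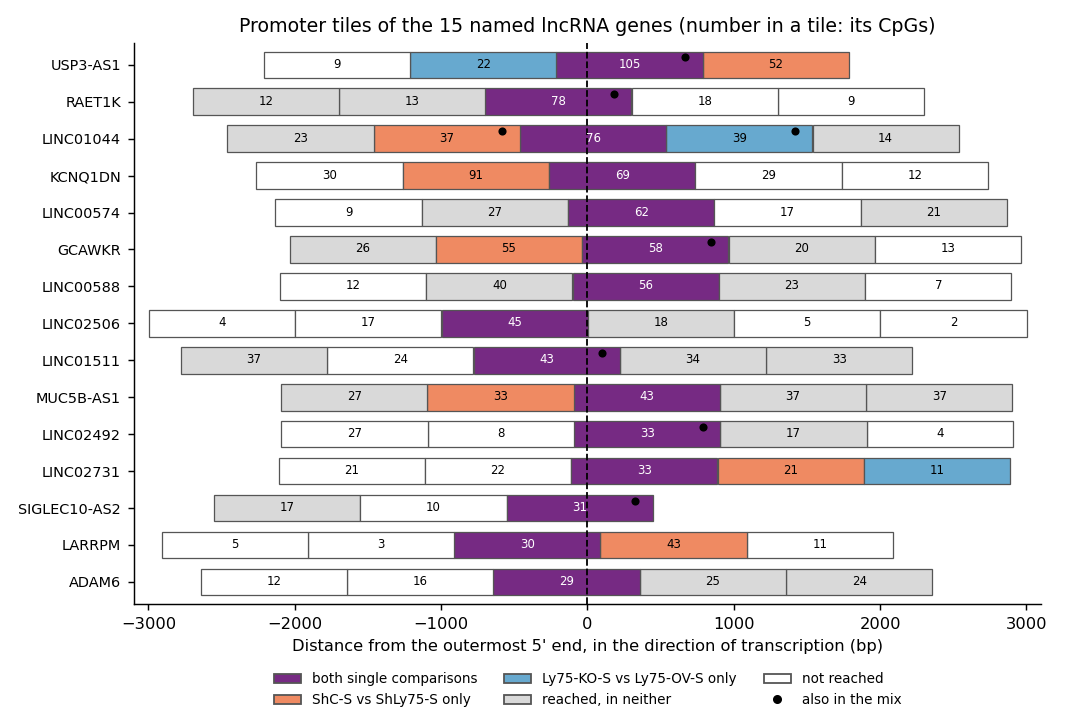
Promoter tiles of 15 lncRNA genes whose 5′ end tile was listed in both single comparisons, drawn against the distance in bp from the outermost 5′ end in the direction of transcription. Numbers are CpGs per tile, colours give the comparison that listed a tile, white tiles were not reached by MspI fragments, and dots mark tiles that the mix also listed (tiles around starts farther away are not drawn). In 8 of the 15 genes the tile over the 5′ end was the sole listed promoter tile.

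USP3-AS1, transcribed against USP3, had the most CpGs, 105 in its 5′ end tile (chr15:63893001-63894000), which lies over an exon of the protein-coding gene FBXL22 and was listed in all 3 comparisons. The neighbouring tile downstream (52 CpGs) was listed in ShC-S vs ShLy75-S, and the tile upstream (22 CpGs) in Ly75-KO-S vs Ly75-OV-S, so that each single comparison listed 2 of the 3 reached tiles.

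RAET1K, a relative of the RAET1 genes for ligands of a natural killer cell receptor that is annotated as noncoding, was listed in a single tile (chr6:150326001-150327000, 78 CpGs), in all 3 comparisons. The reached tiles upstream of it, with 13 and 12 CpGs, were in no table. The reads could hold only 3 and 1 of their CpGs. The tiles downstream were not reached, so how far the difference ran cannot be told.

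LINC01044 had its 5′ end tile (chr13:112985001-112986000, 76 CpGs) in both single comparisons but not in the mix. The tile upstream (37 CpGs) was in ShC-S vs ShLy75-S and the mix, and the tile downstream (39 CpGs) was in Ly75-KO-S vs Ly75-OV-S and the mix. The outer tiles, with 23 and 14 CpGs, were reached and not listed.

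KCNQ1DN was listed over its 5′ end (chr11:2891001-2892000, 69 CpGs) in both single comparisons, and its tile upstream, with 91 CpGs, in ShC-S vs ShLy75-S alone. GCAWKR showed the same arrangement, with the 5′ end tile (chr15:101390001-101391000, 58 CpGs) in all 3 comparisons and the tile upstream (55 CpGs) in ShC-S vs ShLy75-S alone. Its promoter tiles are shared with a lncRNA gene known by the identifier ENSG00000232386. LINC00574 was listed in its 5′ end tile alone (chr6:170190001-170191000, 62 CpGs), in both single comparisons.

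Further LINC genes also had a single listed tile. So did 75.1% of the genes listed in ShC-S vs ShLy75-S and 88.9% of those in Ly75-KO-S vs Ly75-OV-S. LINC00588 (56 CpGs), LINC02506 (45 CpGs), LINC01511 (43 CpGs) and LINC02492 (33 CpGs) were each listed over the 5′ end and nowhere else, the last 2 also in the mix. Of their promoter tiles, 3 of 5, 2 of 6, 5 of 10 and 2 of 15 were reached. The 5′ end tile of LINC02492 also serves ENSG00000249642. LINC02731 (33 CpGs) was also listed in the next tile downstream in ShC-S vs ShLy75-S and in the tile after that in Ly75-KO-S vs Ly75-OV-S.

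MUC5B-AS1 (43 CpGs) lies over an exon of the mucin gene MUC5B, and its tile upstream, with 33 CpGs, was added in ShC-S vs ShLy75-S. SIGLEC10-AS2 (31 CpGs) lies over an exon of SIGLEC10, which encodes a sialic acid receptor of immune cells. Its tile also serves SIGLEC10-AS1 and was listed in all 3 comparisons. LARRPM (30 CpGs) shares its tiles with LINC00240 and was also listed in the tile downstream (43 CpGs) in ShC-S vs ShLy75-S. ADAM6 (29 CpGs) was listed over its 5′ end alone. Across the 15 genes, 7 had a further listed tile in ShC-S vs ShLy75-S and 3 in Ly75-KO-S vs Ly75-OV-S.

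The number of lncRNA promoter tiles differed between the tables. ShC-S vs ShLy75-S listed 3081, which was 6.30% of its 48940 autosomal tiles. Ly75-KO-S vs Ly75-OV-S listed 1438, or 5.37% of 26775, and the mix listed 1285, or 6.404% of 20067. As genes, these were 2535, 1382 and 1236 lncRNA genes with at least 1 listed tile.

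RRBS reads only part of the genome, so the counts were set against the tiles that it could reach. A tile was called reached when the reference held at least 1 CpG within 50 bases of the end of an MspI fragment of 40 to 220 bp. The rule covered 87830 autosomal tiles, of which 17529 were reached. Listed lncRNA promoter tiles were reached in 94.7%, 92.6% and 96.0% of cases in the 3 tables. All listed autosomal tiles were close to this, at 93.0%, 90.1% and 94.1%. Of all autosomal tiles, listed or not, 12.8% were reached.

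Of the 17529 reached lncRNA promoter tiles, 2919 were listed in ShC-S vs ShLy75-S, or 16.7% (Wilson 95% interval 16.1 to 17.2%, which covers counting error only and treats neighbouring tiles as independent). Of all 368220 reached autosomal tiles 12.4% were listed. The share was 12.9% (12.6 to 13.1%) at tiles within 2 kb of a protein-coding TSS and 11.9% (11.8 to 12.1%) at all remaining tiles. The interval of the lncRNA promoters thus lay above those of both other classes.

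In Ly75-KO-S vs Ly75-OV-S, 1332 reached lncRNA promoter tiles were listed, or 7.60% (7.22 to 8.0%), where 6.55% of all reached autosomal tiles were. Here the protein-coding promoters stood lower, at 5.39% (5.24 to 5.55%), and the remaining tiles at 6.84% (6.75 to 6.94%). When lncRNA starts near protein-coding starts were counted too, the lncRNA share came to 6.42%, below the value of all tiles. For the mix the shares were 7.03% (6.66 to 7.42%) at lncRNA promoters, 5.43% at protein-coding promoters and 4.91% at remaining tiles, with 5.13% over all reached tiles.

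The classes differ in CpG content, with a median of 22 CpGs in reached lncRNA promoter tiles, 28 in protein-coding ones and 17 in the rest. Weighting the other classes to the CpG counts of the lncRNA promoters gave 12.3% for protein-coding promoters and 12.9% for remaining tiles in ShC-S vs ShLy75-S, both under the 16.7% of lncRNA promoters. The weighted values for Ly75-KO-S vs Ly75-OV-S were 6.08% and 6.53%, under 7.60%, and for the mix 5.18% and 5.25%, under 7.03%.

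CpG content separated the single comparisons. The listed share of lncRNA promoters in ShC-S vs ShLy75-S was 16.2% for tiles with 0 to 9 CpGs, 12.9% for 10 to 19, 16.9% for 20 to 39, 23.5% for 40 to 59 and 24.0% (21.7 to 26.4%) for 60 or more. In Ly75-KO-S vs Ly75-OV-S the corresponding shares were 8.58%, 8.47%, 7.74%, 6.58% and 3.08% (2.26 to 4.18%). CpG-dense lncRNA promoters were therefore listed most often in the control against knockdown comparison and least often in the knockout against rescue comparison. The mix followed the former, from 5.79% for 10 to 19 CpGs to 11.05% for 60 or more.

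Outside the lncRNA genes the decline in Ly75-KO-S vs Ly75-OV-S was also present, whereas the climb in ShC-S vs ShLy75-S did not run to the densest tiles everywhere. Protein-coding promoter tiles there were listed in 16.5% (15.8 to 17.2%) of cases with 40 to 59 CpGs and in 14.2% (13.7 to 14.8%) with 60 or more. At 60 or more CpGs, ShC-S vs ShLy75-S listed 20.7% of the remaining tiles, beside the 24.0% of lncRNA promoters. Ly75-KO-S vs Ly75-OV-S listed 1.79% of protein-coding promoter tiles and 4.39% of the remaining ones, beside 3.08%. Listed lncRNA promoter tiles accordingly had a median of 24 CpGs in ShC-S vs ShLy75-S and of 20 in Ly75-KO-S vs Ly75-OV-S, against 22 in all reached ones. The number of reads behind a tile, which is unknown, may vary with its CpGs, and its part in these shares was not tested.

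**Figure D2:**
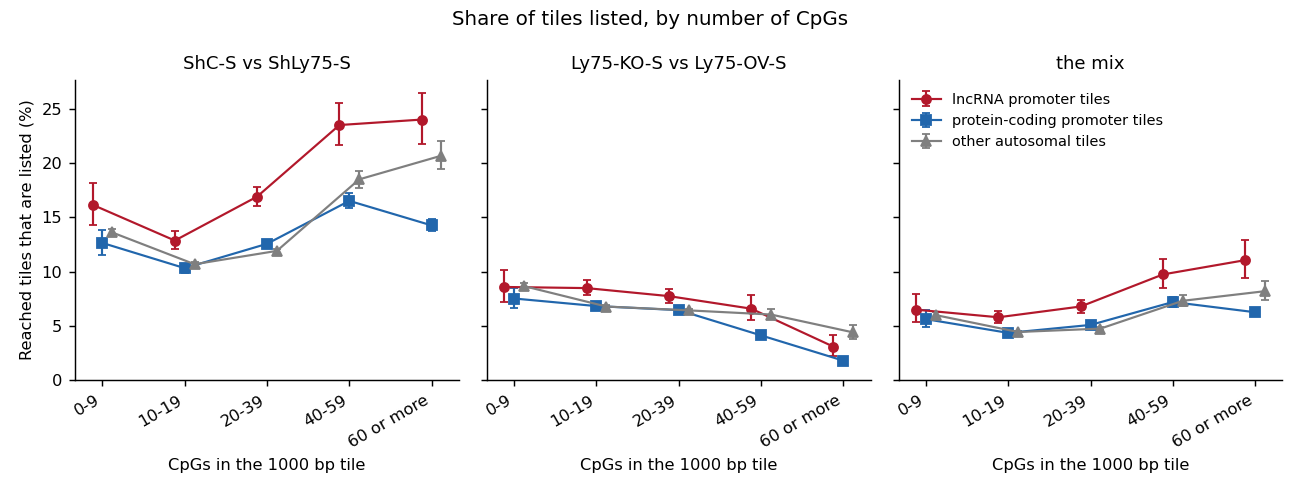
Percentage of reached tiles that each table listed, by the number of CpGs in the 1000 bp tile, for lncRNA promoters, protein-coding promoters and other autosomal tiles. Bars are Wilson 95% intervals. For lncRNA promoters the share in ShC-S vs ShLy75-S climbs to 24.0% at 60 or more CpGs, while in Ly75-KO-S vs Ly75-OV-S it declines to 3.08%.

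Within the promoter window, ShC-S vs ShLy75-S listed tiles that hold a TSS more often than tiles farther away. The share was 19.5% (18.4 to 20.6%) for tiles holding a TSS, 16.7% for tiles within 1000 bp upstream and 16.9% within 1000 bp downstream, and 13.2% (12.03 to 14.6%) and 14.4% (13.2 to 15.8%) for tiles farther upstream and downstream. Ly75-KO-S vs Ly75-OV-S showed no such peak: the share was 7.38% (6.70 to 8.12%) for tiles holding a TSS, and from 7.10% to 8.33% elsewhere, with overlapping intervals. The mix reached 8.60% at the TSS and 5.23% far upstream. Tiles holding a TSS also had more CpGs, a median of 27 compared with 19 in both outermost classes, so that position and CpG content were not separated.

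**Figure D3:**
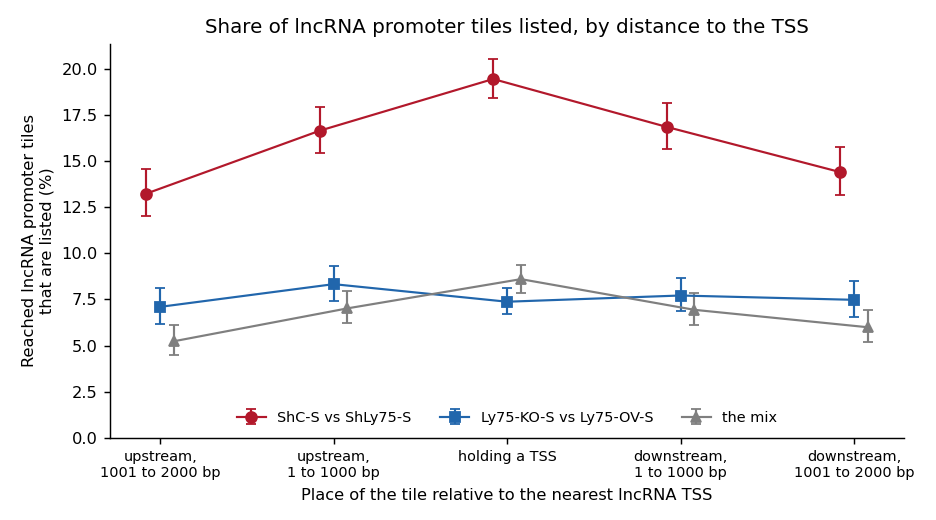
Percentage of reached lncRNA promoter tiles that each table listed, by the place of the tile relative to the nearest lncRNA TSS. Bars are Wilson 95% intervals. ShC-S vs ShLy75-S has its highest share, 19.5%, at tiles holding a TSS, and the intervals of Ly75-KO-S vs Ly75-OV-S overlap at all places.

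Of the 17529 reached lncRNA promoter tiles, 12952 (73.9%) lay outside protein-coding genes. Of the tiles in ShC-S vs ShLy75-S, 2413 (78.3%) were outside protein-coding genes, 454 in an intron only and 214 over an exon. For Ly75-KO-S vs Ly75-OV-S the numbers were 1063 (73.9%), 246 and 129. Reached tiles outside protein-coding genes were listed in 17.7% (17.0 to 18.3%) of cases in ShC-S vs ShLy75-S, against 13.5% (12.4 to 14.8%) of those in an intron and 14.3% (12.6 to 16.2%) of those over an exon. The values in Ly75-KO-S vs Ly75-OV-S were 7.59%, 7.26% and 8.43%, with overlapping intervals.

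The lncRNA promoters were listed throughout the autosomes. In ShC-S vs ShLy75-S the share ran from 13.8% on chromosome 4 to 21.0% on chromosome 20 and exceeded that of the other reached tiles on 22 of 22 autosomes. In Ly75-KO-S vs Ly75-OV-S it ran from 5.50% on chromosome 16 to 9.54% on chromosome 2 and was the higher on 19 of 22. The interval of a single chromosome stayed above the other tiles on 20 autosomes in the former and on 5 in the latter.

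**Figure D4:**
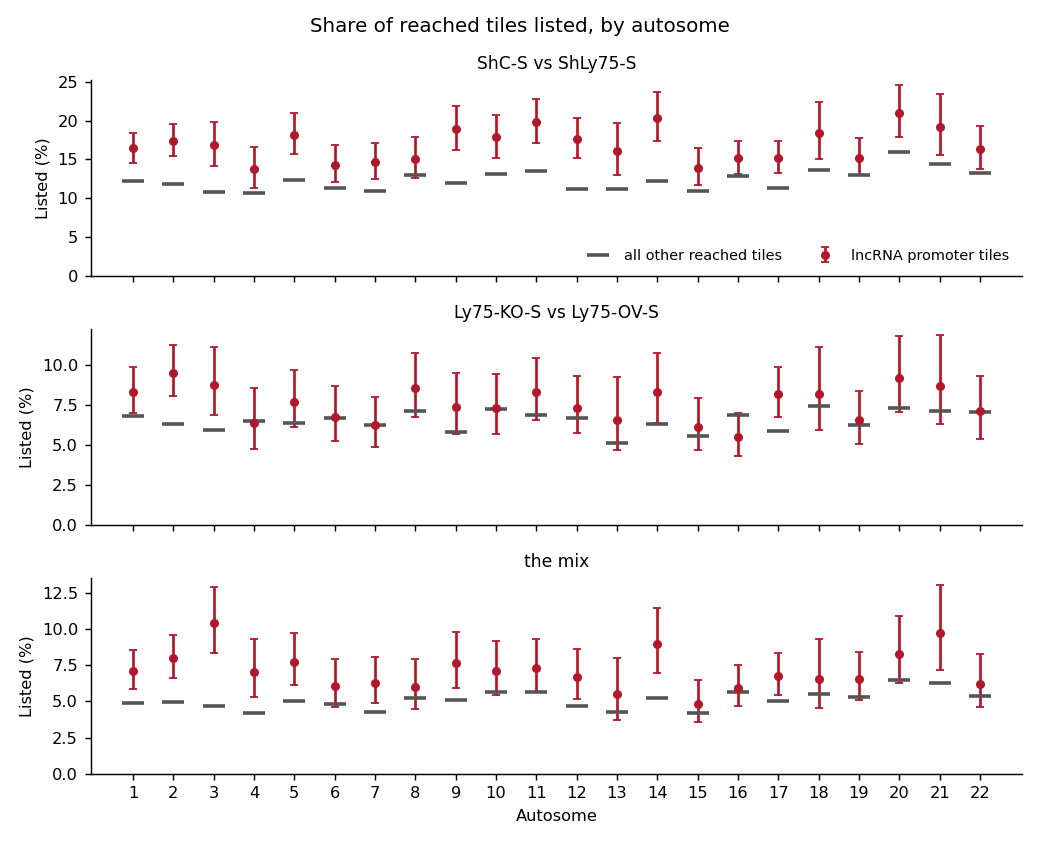
Percentage of reached tiles listed on each of the 22 autosomes, for lncRNA promoters (points, with Wilson 95% intervals) and for all other reached tiles (dashes). In ShC-S vs ShLy75-S the point lies above the dash on 22 autosomes, and in Ly75-KO-S vs Ly75-OV-S on 19.

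Listed lncRNA promoter tiles overlapped between the single comparisons in 484 cases, which was 15.7% (14.5 to 17.0%) of those in ShC-S vs ShLy75-S and 33.7% (31.3 to 36.1%) of those in Ly75-KO-S vs Ly75-OV-S. Over all autosomal tiles, 16.0% of the former table and 29.2% of the latter were shared. At protein-coding promoters the shares were 12.5% and 29.0%. Among reached lncRNA promoter tiles, 15.6% of those in ShC-S vs ShLy75-S were also in Ly75-KO-S vs Ly75-OV-S, compared with 6.0% of those that were not. Over all reached autosomal tiles the same pair was 15.97% and 5.23%, so that the lncRNA promoters were near the rest of the genome in this respect.

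The split by CpG content covers reached tiles only, of which 455 were shared. Shared tiles made up 19.2% of the reached ShC-S vs ShLy75-S tiles with 0 to 9 CpGs and 5.59% of those with 60 or more. The latter class held 17 shared tiles. Between these classes the share of all reached lncRNA promoter tiles listed in Ly75-KO-S vs Ly75-OV-S itself fell from 8.58% to 3.08%. Of the reached Ly75-KO-S vs Ly75-OV-S tiles, shared ones made up 32.1 to 36.1% in the classes below 60 CpGs. They made up 43.6% of the 39 tiles with 60 or more. This split was not made for all autosomal tiles. All 484 shared tiles, reached or not, had a median of 20 CpGs.

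The remaining tiles fell apart as follows. ShC-S vs ShLy75-S alone listed 1751 tiles, and 846 more were in that table and the mix. Ly75-KO-S vs Ly75-OV-S alone listed 830, and 124 more were in that table and the mix. Of the 484 shared tiles 247 were in the mix too, and 68 tiles were in the mix alone. Over all autosomal tiles, 3984 of the 7825 shared tiles were in the mix too, a similar part. The other counts of this split were made for lncRNA promoter tiles only. As genes, 718 had listed tiles in both single comparisons, and for 496 of them it was the same tile.

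Neighbouring tiles were listed together more often in the control against knockdown comparison. There, 748 lncRNA promoter tiles (24.3%) stood in runs of 2 or more adjacent listed members, and the longest run had 5 tiles. In Ly75-KO-S vs Ly75-OV-S the number was 129 (8.97%), and the longest run, 3 tiles, lay at HULC (chr6:9040001-9043000). A gene had a single listed tile in 75.1% of genes in the former comparison and 88.9% in the latter. The former table lists more tiles, and the part of its length in this difference was not tested. Runs were counted among lncRNA promoter tiles only. The same share over all listed autosomal tiles was not determined, so these values do not set lncRNA promoters apart.

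Genes were next grouped by the form of their names, with genes that had at least 1 reached tile as the base. A tile was listed in ShC-S vs ShLy75-S for 28.7% of all 8615 lncRNA genes. The share was 37.02% (34.5 to 39.6%) for 1356 LINC genes, 28.3% (25 to 31.9%) for 657 antisense genes, 26.2% (25.1 to 27.3%) for 5891 genes with an identifier only and 17.3% (11.1 to 26.0%) for 98 divergent transcripts, which start back to back with a neighbour. For Ly75-KO-S vs Ly75-OV-S the order was alike, with 15.5% of all genes, 19.5% of LINC genes, 16.7% of antisense genes, 14.3% of genes with an identifier only and 6.12% of divergent transcripts. The 479 genes with other symbols had 38.4% and 18.8% in the respective comparisons. LINC, antisense and identifier-only genes each had a median of 2 reached tiles, and divergent transcripts had 1. For a divergent transcript beside a protein-coding gene, tiles around the shared start are outside the rule, as for PRDM16-DT and LMX1B-DT. The share of such genes then rests on the tiles that are left.

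Named sets of lncRNA genes were then examined by tile, with the share of all reached lncRNA promoter tiles, 16.7%, 7.60% and 7.03%, as the comparison. Some genes stand in more than 1 list (HOTAIR, for example, among the HOX and the cancer lncRNAs). Some of their tiles also serve another lncRNA gene, such as the 5′ end tile of LINC00511, and not every such case is named below. Gene counts depend on how many tiles of a gene were reached, a median of 2 over all lncRNA genes and of 2 to 4 in the lists, and are to be set against the 28.7% of all genes in ShC-S vs ShLy75-S and the 15.5% in Ly75-KO-S vs Ly75-OV-S. The 6 lists are described by counts only. CpG counts are those of the whole tile, of which the reads could hold only a part.

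**Figure D5:**
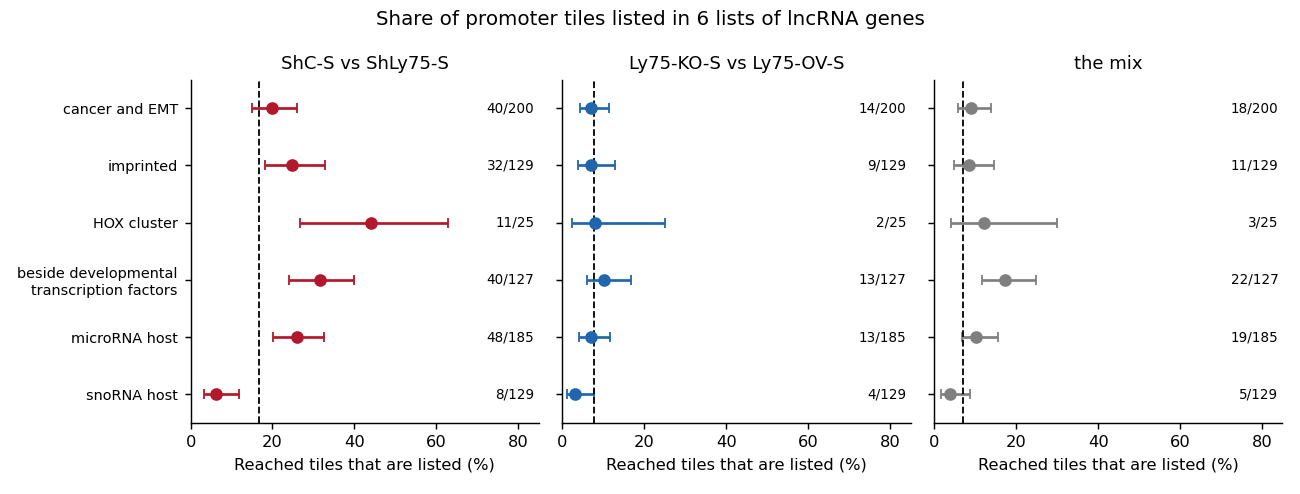
Percentage of reached promoter tiles that each table listed, for 6 lists of lncRNA genes. Bars are Wilson 95% intervals, the numbers at the right are listed and reached tiles, and the dashed line is the share of all reached lncRNA promoter tiles. In ShC-S vs ShLy75-S the HOX list stands highest at 44% and the snoRNA host list lowest at 6.20%. The dashed line is not matched to the CpG content of a list.

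Transcripts of the HOX clusters, which lie among the genes that pattern the body axis, had 25 reached tiles with a median of 40 CpGs. ShC-S vs ShLy75-S listed 11 of them, or 44% (26.7 to 62.9%), and Ly75-KO-S vs Ly75-OV-S listed 2, or 8.0% (2.22 to 24.97%). Among all reached lncRNA promoter tiles with 40 to 59 CpGs these tables listed 23.5% and 6.58%. The part of CpG content in the HOX share was not tested. Of 8 genes of the list with a reached tile, 6 were listed in ShC-S vs ShLy75-S and 1 in Ly75-KO-S vs Ly75-OV-S, and 0 were in both. HOTAIR, an antisense transcript of the HOXC cluster linked to metastasis, had 4 of 6 reached tiles in ShC-S vs ShLy75-S, at 43, 26 and 24 CpGs inside the gene region and 44 upstream of the outermost 5′ end, over an exon of HOXC11. HOXA-AS2 and HOXB-AS3 had 2 tiles each in that comparison, with 59 and 47 CpGs in HOXA-AS2 and 35 and 78 CpGs in HOXB-AS3, over exons of HOXA3 and HOXB3. HAGLR of the HOXD cluster had 2 tiles and HOTAIRM1 of the HOXA cluster 1. HOXA11-AS was the gene listed the other way round, with 2 tiles (46 and 14 CpGs) in Ly75-KO-S vs Ly75-OV-S and 0 in ShC-S vs ShLy75-S.

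LncRNAs beside genes for developmental transcription factors had 127 reached tiles, with a median of 41 CpGs. The listed shares were 31.5% (24.1 to 40.02%) in ShC-S vs ShLy75-S, 10.2% (6.08 to 16.7%) in Ly75-KO-S vs Ly75-OV-S and 17.3% (11.7 to 24.8%) in the mix. Among all reached lncRNA promoter tiles with 40 to 59 CpGs the shares were 23.5%, 6.58% and 9.73%. The part of CpG content was not tested here either. SOX9-AS1, beside the gene of the chondrocyte and gonad factor SOX9, was listed in 4 tiles in ShC-S vs ShLy75-S, and 1 of these (chr17:70114001-70115000, 58 CpGs) was in all 3 comparisons. TBX2-AS1 had 4 tiles in ShC-S vs ShLy75-S, 3 of them with 89, 97 and 102 CpGs, while its 1 tile in Ly75-KO-S vs Ly75-OV-S had 11 CpGs. GATA6-AS1, beside the gene of the endoderm factor GATA6, went the other way, with a tile of 105 CpGs (chr18:19745001-19746000) in Ly75-KO-S vs Ly75-OV-S alone.

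PAX8-AS1, which lies at the gene of the Mullerian lineage factor PAX8, had 3 tiles in ShC-S vs ShLy75-S, of which 1 in an intron of PAX8 (chr2:114007001-114008000, 16 CpGs) was in all 3 comparisons. The reads could hold 1 of these 16 CpGs. SFTA3, beside NKX2-1, had 1 tile in all 3 comparisons (26 CpGs) and 1 in Ly75-KO-S vs Ly75-OV-S alone (42 CpGs). Both tiles lie in an intron of a gene annotated as protein-coding under the same symbol. FOXCUT, upstream of FOXC1, had 1 tile of 34 CpGs in both single comparisons and 1 of 87 CpGs in ShC-S vs ShLy75-S alone. The former tile was outside the reached set. The 12 genes of this list in Ly75-KO-S vs Ly75-OV-S included 9 that were also in ShC-S vs ShLy75-S, where over all lncRNA genes 718 of 1382 (51.95%) were.

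MicroRNA host genes had 185 reached tiles (median 27 CpGs), of which 25.9% (20.2 to 32.7%) were listed in ShC-S vs ShLy75-S, 7.03% (4.15 to 11.7%) in Ly75-KO-S vs Ly75-OV-S and 10.3% (6.67 to 15.5%) in the mix. MIRLET7BHG, a source of let-7 microRNAs that restrain growth, had 8 of its 16 reached tiles in ShC-S vs ShLy75-S and 1 of these (chr22:46476001-46477000, 43 CpGs) in all 3 comparisons. MIR124-2HG, a source of a neural microRNA, was listed over its 5′ end (25 CpGs) and farther upstream (47 CpGs) in both single comparisons, and in ShC-S vs ShLy75-S also downstream (67 CpGs). The reads could hold 1 of the 25 CpGs of the 5′ end tile. MIR9-3HG had 7 of 18 reached tiles in ShC-S vs ShLy75-S, with 5 to 90 CpGs, and 1 different tile in Ly75-KO-S vs Ly75-OV-S (25 CpGs).

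MIR4432HG had 2 tiles in both single comparisons, with 9 and 7 CpGs, the latter also in the mix. MIR99AHG, MIR194-2HG and MIR924HG each had 1 tile in both, with 15, 20 and 34 CpGs. Host genes could therefore share tiles at low as well as moderate CpG content.

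Imprinted lncRNAs, which are made from the copy of 1 parent and whose promoters are often methylated on the other copy, had 129 reached tiles. Of these 24.8% (18.2 to 32.9%) were listed in ShC-S vs ShLy75-S, 6.98% (3.71 to 12.7%) in Ly75-KO-S vs Ly75-OV-S and 8.53% (4.83 to 14.6%) in the mix. The intervals treat tiles of 1 gene as independent, although SNHG14 held 42 of the reached tiles, MEG3 20 and H19 11. MEG3, a maternally made growth-restraining transcript of chromosome 14, had 9 of its 20 reached tiles in ShC-S vs ShLy75-S, with 18 to 57 CpGs, and 2 in Ly75-KO-S vs Ly75-OV-S. The tile of MEG3 in all 3 comparisons (chr14:101300001-101301000, 21 CpGs) also serves MIR493HG. H19, the maternally made transcript beside IGF2, had 5 of 11 reached tiles in ShC-S vs ShLy75-S, and 1 of them (chr11:2020001-2021000, 37 CpGs) in both single comparisons.

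KCNQ1OT1, the paternally made antisense transcript inside KCNQ1, had 2 tiles in ShC-S vs ShLy75-S, 1 on each side of the tile with its 5′ end, which has 98 CpGs, was reached and was in no table. The tile downstream (77 CpGs) was in the mix too, and Ly75-KO-S vs Ly75-OV-S listed 0 tiles of the gene. SNHG14, the long host of the snoRNAs of the Prader-Willi region, had 5 of its tiles in ShC-S vs ShLy75-S and 2 in Ly75-KO-S vs Ly75-OV-S, sharing 1 (chr15:25226001-25227000, 11 CpGs) that was listed in all 3 comparisons although it was outside the reached set. LINC00654 had 1 tile of 36 CpGs in both single comparisons. Reads of the parental copies are not separated in these tables.

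The snoRNA host genes, whose introns release snoRNAs, had the lowest shares of the 6 lists by tile. Of 129 reached tiles 6.20% (3.18 to 11.8%) were listed in ShC-S vs ShLy75-S, 3.10% (1.21 to 7.70%) in Ly75-KO-S vs Ly75-OV-S and 3.88% (1.67 to 8.75%) in the mix, and the median of 24 CpGs was close to that of all lncRNA promoters. The upper bound for ShC-S vs ShLy75-S was below the 16.7% of all lncRNA promoter tiles, but the intervals treat tiles of 1 gene as independent. SNHG14, described above, held 42 of these reached tiles. Without it, a count added after the data were seen, the shares were 4.60% (1.80 to 11.2%), 3.45% (1.18 to 9.65%) and 4.60% of 87 tiles. SNHG27 held 29 of these 87 tiles, with 0 listed in ShC-S vs ShLy75-S and 1 in Ly75-KO-S vs Ly75-OV-S. The low shares by tile thus rest in large part on a few genes. By gene, 5 of 21 (23.8%) were listed in ShC-S vs ShLy75-S, beside 28.7% of all lncRNA genes. In Ly75-KO-S vs Ly75-OV-S 4 (19.05%) were listed, above the 15.5% of all lncRNA genes. SNHG29 had 1 tile (11 CpGs), over an exon of LRRC75A, in all 3 comparisons. SNHG16 had 1 tile (20 CpGs) in ShC-S vs ShLy75-S and the mix, SNHG25 had a different tile in each single comparison (30 and 22 CpGs), and SNHG27 had 1 tile of 73 CpGs in Ly75-KO-S vs Ly75-OV-S. MEG8, which also stands among the imprinted genes of chromosome 14, had 1 tile (11 CpGs) in ShC-S vs ShLy75-S.

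LncRNAs linked to cancer or to epithelial-mesenchymal transition had 200 reached tiles. The shares were 20% (15.05 to 26.1%) in ShC-S vs ShLy75-S, 7.0% (4.22 to 11.4%) in Ly75-KO-S vs Ly75-OV-S and 9.0% (5.77 to 13.8%) in the mix, and each interval held the value of all lncRNA promoters. Of 42 genes with a reached tile, 22 were listed in ShC-S vs ShLy75-S, 9 in Ly75-KO-S vs Ly75-OV-S and 8 in both. These 52.4% and 21.4% stand beside 28.7% and 15.5% of all lncRNA genes, which had a median of 2 reached tiles against 3 here. LINC00511 had 9 of its tiles in ShC-S vs ShLy75-S, including the 5′ end tile (chr17:70636001-70637000, 57 CpGs), and 3 in Ly75-KO-S vs Ly75-OV-S, with 2 tiles in both. LINC00472 had its 5′ end tile (97 CpGs) and the next tile downstream (73 CpGs) in ShC-S vs ShLy75-S, whereas the tile upstream (13 CpGs) was in Ly75-KO-S vs Ly75-OV-S and the mix.

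HULC, named for its high level in liver cancer, had 4 tiles in Ly75-KO-S vs Ly75-OV-S and 2 in ShC-S vs ShLy75-S, with 1 in both (chr6:9024001-9025000, 63 CpGs). These tiles belong to starts that GENCODE places far downstream of the outermost 5′ end of the gene. The tile over that end (64 CpGs) lay within 2 kb of a protein-coding TSS. It was therefore outside the rule, and its listing was not examined. PVT1, the neighbour of MYC, had 3 tiles in ShC-S vs ShLy75-S and 1 of these in both single comparisons (31 CpGs). CASC15 had 1 tile of 22 CpGs in both, and it had a tile of 51 CpGs in ShC-S vs ShLy75-S next to a tile of 52 CpGs in Ly75-KO-S vs Ly75-OV-S. EGOT, which lies in an intron of ITPR1, had 1 tile of 11 CpGs in all 3 comparisons.

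The genes with the most listed tiles in ShC-S vs ShLy75-S were LINC00511 and MEG3 with 9, MIRLET7BHG with 8, and LINC00461 and MIR9-3HG with 7. In Ly75-KO-S vs Ly75-OV-S they were LINC02016 with 5 and the gene ENSG00000283235 and HULC with 4, followed by 11 genes tied at 3, of which DRAIC and ELFN1-AS1 were taken by alphabetical order. LINC02016 also had 4 tiles in ShC-S vs ShLy75-S, 2 of them the same, and ELFN1-AS1 had 1, which was the same tile (chr7:1783001-1784000, 45 CpGs). ENSG00000283235 had 0 in ShC-S vs ShLy75-S, although 6 of its tiles were reached, and its 4 tiles had 10 to 21 CpGs. DRAIC, a transcript studied in prostate cancer, had 6 in ShC-S vs ShLy75-S and 2 in both single comparisons, and both of these were in the mix (29 and 13 CpGs).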

How the data were processed

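RRBS gave the DNA methylation of 4 clones of SKOV3, with 1 library per clone. Per the labels, DNA was cut with MspI and read as single reads of 50 bp; the submitters' processing notes name Trim Galore 0.4.1, Bismark 0.16.1, methylKit and FastQC, while the extraction protocol names Trimmomatic for trimming. The authors compared libraries in tiles of 1000 bp and deposited 3 tables of tiles past their limits. Beside coordinates, the deposited tables hold the authors' own results, a difference in percent methylation, a p-value and a q-value, and these columns were not used. The smallest coverage accepted is not given in the sources used here.

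Coordinates were read on hg19. All listed autosomal tiles lay within GRCh37 chromosomes, 0 lacked a CpG there, and 92.0% were reached, against 12.8% of the 2881044 autosomal tiles. Gene types, 5′ ends and exons were from GENCODE release 44 mapped to GRCh37, with 18229 autosomal lncRNA and 19229 protein-coding genes, of which 15522 lncRNA genes had a tile of the rule. All annotated transcripts counted as starts. CpGs and MspI fragments were taken from the GRCh37 sequence. Shares carry 95% Wilson intervals. With 1 library per clone and no read counts, no test between conditions was made. Named genes were the 15 symbols with the most CpGs in a 5′ end tile listed in both single comparisons, up to 6 genes per list (shared tiles before unshared ones, then by CpGs) and the 5 genes with the most listed tiles in each single comparison. List genes were matched by symbol or RefSeq synonym, and genes without a reached tile were left out of gene counts. Members and lists were chosen with earlier results of these data known. Counting was checked on simulated tiles. Python 3.11.15, numpy 2.4.6, scipy 1.17.1 and matplotlib 3.10.9 were used.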

Additional observations from a re-analysis of the deposited data

How the results depend on the processing

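Of the 86 values under 10 alternatives to the rule, 62 stayed within 1.5 times of the reported count or within the interval of the reported share, and 24 did not. The 62 include the values with only lncRNA genes of GENCODE annotation level 1 or 2. That alternative left every value unchanged and so could show no dependence. A window of 5 kb on either side gave 5352, 2736 and 2196 listed lncRNA promoter tiles in ShC-S vs ShLy75-S, Ly75-KO-S vs Ly75-OV-S and the mix, 4151, 2560 and 2084 listed genes, and 876 tiles in both single comparisons. Without a distance to protein-coding starts, ShC-S vs ShLy75-S had 4916 tiles and 3898 genes, and the mix had 2091 tiles and 1940 genes. The listed share of reached tiles in ShC-S vs ShLy75-S was 17.9% with a window of 1 kb, 15.2% with 5 kb, 15.7% without the distance to protein-coding starts, 17.2% with an overlap of 500 bp, 19.7% with fragments of 40 to 150 bp and 14.6% with fragments of 20 to 300 bp. In Ly75-KO-S vs Ly75-OV-S it was 6.42% without that distance, 8.73% with the shorter fragments and 6.74% with the wider range, and in the mix 7.68% with 1 kb, 6.30% with 5 kb, 8.52% with the shorter fragments and 6.13% with the wider range. Over all settings, 32 of 33 shares were above that of all reached autosomal tiles under the same setting. The exception was the 6.42%. Leaving SNHG14 out of the snoRNA hosts, chosen after seeing the data, kept its 3 shares within their intervals. No paired analysis was possible because the result comes from no test and each clone has 1 library. A stricter threshold was not run because it needs the unused columns, and leaving out a library was not possible. The depth per tile is unknown, so a tile that is absent from a table may have had too few reads.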
